A study of Mus musculus with 2 samples.

Results

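Keratin-associated proteins form the matrix of the hair shaft, and their mouse genes carry the symbol Krtap followed by a family number and a member number. All gene names on the array that began with Krtap and a digit were taken, which gave 53 of the 31044 names, with 65 probes at 74 spots. All 53 names are kept as the scanner files give them, and for 51 the accession of the probe was also found in RefSeq. The set was taken up because Krtap genes had been seen to be lower in the knockout on these same arrays, so every difference between the genotypes is given as a description and none is tested. Dorsal skin was taken from newborn mice at postnatal day 0 on a C57BL/6J background, either wild type (Sdr9c7+/+) or lacking Sdr9c7, a short-chain dehydrogenase of the epidermis (Sdr9c7-/-). Each genotype had 1 array, made from equal amounts of RNA pooled from 5 animals, so differences between animals cannot be seen and the array and the genotype cannot be told apart. The tissue is skin by the sample labels and epidermis by the design text. Markers of muscle, fat and the dermal papilla were well above background on both arrays, as given with the other gene lists.

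A hair shaft is built in the follicle by cells that first fill with hair keratins, which assemble into filaments, and then with keratin-associated proteins, which surround the filaments and are crosslinked to them and to each other through cysteine. The proteins are small, and their genes lie in dense clusters, many without an intron. By composition they fall into high glycine-tyrosine proteins, high sulfur proteins and ultrahigh sulfur proteins, the last with the most cysteine. In newborn mouse skin the follicles are still growing downwards and the first hairs are being made.

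In some high glycine-tyrosine and ultrahigh sulfur probes the codons that mark the class can be read. Picked for those codons, they do not measure the composition of a class. A probe is a stretch of the transcript of the length shown, and those printed here were chosen because a reading frame had no stop codon and was rich in the codons of a class. In the high glycine-tyrosine genes the codons for glycine and tyrosine are in capitals, and all letters run 5′ to 3′ as in the scanner files. Positions are on mm9, where Krtap20-2 is read at chr16:89206195-89206254 on the plus strand, Krtap19-2 at chr16:88874195-88874254 on the minus strand and Krtap21-1 at chr16:89403912-89403971 on the minus strand.
Krtap20-2: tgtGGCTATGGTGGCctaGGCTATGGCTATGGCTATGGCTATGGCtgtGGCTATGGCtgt
Krtap19-2: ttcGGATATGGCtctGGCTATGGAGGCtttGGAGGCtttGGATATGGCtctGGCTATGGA
Krtap21-1: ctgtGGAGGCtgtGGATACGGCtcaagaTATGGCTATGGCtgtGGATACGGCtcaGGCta
Of the 20 codons in the Krtap20-2 probe, 16 encode glycine or tyrosine, as do 15 of 20 in the Krtap19-2 probe and 13 of 19 in the Krtap21-1 probe. Krtap20-2 and Krtap21-1 also carry 3 cysteine codons each in this stretch, and Krtap19-2 carries 0.

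In the ultrahigh sulfur genes the cysteine codons TGT and TGC are in capitals. Krtap5-5 is read at chr7:149398229-149398288 on the plus strand, Krtap5-1 at chr7:149482800-149482859 on the minus strand and Krtap4-8 at chr11:99641467-99641526 on the minus strand (mm9).
Krtap5-5: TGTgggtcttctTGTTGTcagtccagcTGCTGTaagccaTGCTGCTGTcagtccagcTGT
Krtap5-1: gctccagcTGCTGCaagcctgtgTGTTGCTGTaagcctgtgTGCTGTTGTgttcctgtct
Krtap4-8: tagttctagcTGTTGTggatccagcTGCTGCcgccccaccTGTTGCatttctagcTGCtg
Cysteine takes 9 of 20 codons in the Krtap5-5 probe, 8 of 19 in the Krtap5-1 probe and 7 of 19 in the Krtap4-8 probe. Repeats of this kind let a probe read more than 1 gene. Among probes of different members, 3 pairs shared an identical run of at least 20 bases. These joined Krtap16-3 with Krtap19-2, by 25 bases, and Krtap5-2 with Krtap5-5, by 21 and by 20 bases, so the values of these 4 genes are not independent. Whether a probe lies in an exon or a UTR was not read from an annotation, as the genes were annotated on a later build than the probes.

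Most of the promoters that were matched hold a TATA box sequence just before the start. RefSeq promoters on GRCm38.p6, 250 bases before to 50 after the annotated start, were matched for 47 of the 53 genes. The letters TATAAA, the core of a TATA box, were searched on the coding strand from 45 to 16 bases before the start and were present in 29 of the 47 (61.7%), against 702 of 32851 promoters of all genes (2.14%). Of the 29 matches, 18 began 30 to 32 bases before the start, with a median of 31 and a range from 27 to 44. The last 60 bases before the start are printed for the member with the lowest value, for the brightest ultrahigh sulfur gene, for a high glycine-tyrosine gene and for the one member above 0, with TATAAA in capitals. They lie on GRCm38.p6 at chr11:99556854-99556913 on the minus strand, chr11:99993995-99994054 on the minus strand, chr16:89010760-89010819 on the minus strand and chr11:99907860-99907919 on the plus strand.
Krtap3-2: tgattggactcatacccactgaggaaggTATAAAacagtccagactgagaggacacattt
Krtap17-1: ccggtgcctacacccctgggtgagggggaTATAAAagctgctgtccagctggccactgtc
Krtap22-2: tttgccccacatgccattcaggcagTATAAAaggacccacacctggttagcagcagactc
Krtap31-1: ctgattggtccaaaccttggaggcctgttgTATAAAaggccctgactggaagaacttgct
By class, the match was present in 6 of 14 high glycine-tyrosine promoters, 8 of 14 high sulfur promoters and 14 of 18 ultrahigh sulfur promoters, and in 4 of 9 promoters of hair keratins. Among measured members the median log2 difference between the genotypes, described below, was −0.92 for the 27 with it and −1.02 for the 13 without it. Match and class cannot be told apart here, since the match was rarest in the high glycine-tyrosine class, which had the lowest median. Anywhere in the 300 bases and on either strand, TATAAA was present in 39 of 47 members (83.0%) and 13.6% of all promoters. With this wider search the order was the other way, with a median of −0.93 for the 36 measured members with it and −0.72 for the 4 without it. CTTTGA, a core of the sites bound by LEF1 and related factors, was present on either strand in 14 of 47 (29.8%) against 16% of all promoters. It was present in 4 of 14 high glycine-tyrosine, 8 of 14 high sulfur and 1 of 18 ultrahigh sulfur promoters, and in 5 of 9 promoters of hair keratins. A match in these letters is a description and not a binding site.

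Signals are given relative to the 75th percentile of each array, so that 1 equals it, and a difference is log2 of the knockout over the wild type. Well above background, a flag that the scanner files set from the background's own spread, were 74.9% of wild type and 76.8% of knockout probes. No probe was saturated. Sdr9c7 itself went from 0.324 to 0.0479, a log2 difference of −2.76 by 1 probe. Over all 22719 measured gene names the median log2 difference was −0.04.

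Keratin-associated protein transcripts were lower in the knockout in nearly every gene that could be read. With the scanner software's background correction the degree was about the same in dim and bright genes. Of the 53 genes, 46 were well above background on both arrays, 2 on the wild type array only, and 5 on neither. Of the 46, 45 lay below 0, against 56.9% of all measured names. Their median log2 difference was −0.89, which is 54.1% of the wild type signal, with an SD of 0.36 between genes and a range from −1.68 (Krtap3-2) to 0.28 (Krtap31-1). At least 2-fold lower were 15 of the 46, against 1.36% of all measured names, and 0 were at least 2-fold higher, against 0.528%. A further 22 were 1.5-fold to 2-fold lower, so that 37 were lower by at least 1.5-fold (all measured names 6.05%). With normexp background correction in place of the scanner software's, 5 of the 15 remained past 2-fold, namely Krtap3-2, Krtap7-1, Krtap22-2, Krtap8-1 and Krtap9-3, and 45 of 46 were still below 0. The largest of these shifts was in the dim Krtap19-9b, from −1.40 to −0.72. Among other genes the dim Krtap2-4 went from −0.82 to −0.43, while the brighter Krtap8-1 hardly moved, from −1.05 to −1.01. The likeness of dim and bright genes therefore depends on the background correction. No conclusion is drawn from the shares of genes past a threshold, since the set was chosen on this same contrast. In RNA of whole skin, fewer hair-forming cells and less RNA in each such cell cannot be told apart.

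**Figure D1:**
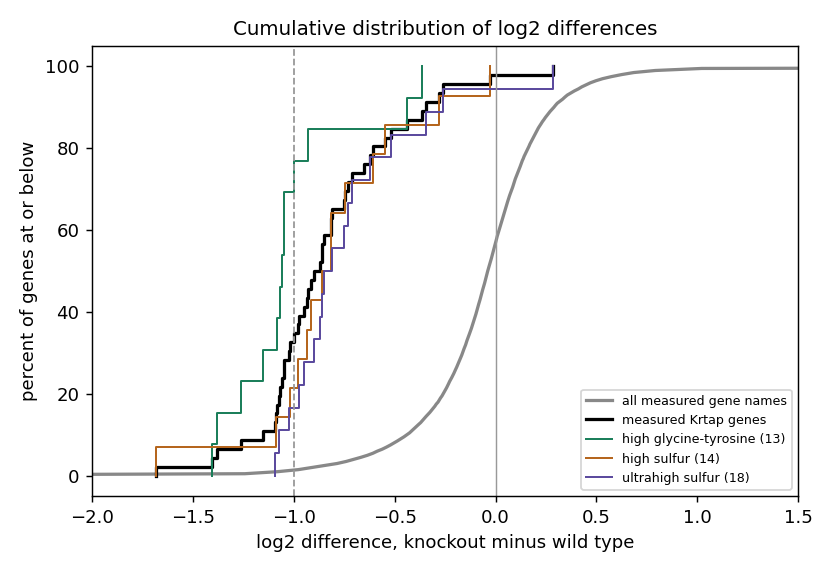
The cumulative percent of genes (y axis) is plotted against the log2 difference, knockout minus wild type (x axis), for all measured names in grey, the measured Krtap genes in black and the 3 classes in colour, with the dashed line at 2-fold lower. The Krtap curve lies to the left, with its median at −0.89 against −0.04 for all names, and the high glycine-tyrosine curve lies furthest to the left over most of its length.

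The high glycine-tyrosine class held 15 genes, all on chromosome 16, and its 13 measured members were all lower in the knockout, 9 of them at least 2-fold. Their median log2 difference was −1.06. Krtap19-9b had the lowest value of the class, at −1.40, and was dim, going from 0.0418 in wild type skin to 0.0158 in knockout skin. Krtap7-1 went from 0.108 to 0.0413 (−1.38). Family 7 has this gene alone on the array. In family 6, Krtap6-1 went from 0.126 to 0.0525 (−1.26), Krtap6-2 from 0.0556 to 0.0265 (−1.07) and Krtap6-5 from 0.122 to 0.0587 (−1.06). All 3 genes of family 6, a family long known from wool, were therefore past 2-fold with the scanner software's background correction, and close to one another. Under normexp none of them was, with Krtap6-1 at −0.90, Krtap6-2 at −0.65 and Krtap6-5 at −0.79. Krtap6-2 was also read only in an area of the array with unusually large scatter.

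Among the brighter genes of the class, Krtap22-2 went from 0.723 to 0.325 (−1.15) and Krtap8-1 from 0.628 to 0.304 (−1.05). Both are single-gene families here, and both were past 2-fold. Krtap19-2 went from 0.316 to 0.149 (−1.08), Krtap21-1 from 0.151 to 0.0726 (−1.05) and Krtap16-3 from 0.233 to 0.117 (−1.0). Krtap16-3 lay just inside 2-fold, and Krtap19-2 just past it, and these are the genes whose probes share a run of 25 bases. Krtap20-2, read by 3 probes well above background, went from 0.973 to 0.511 (−0.93), with −0.81, −0.90 and −1.08 for the single probes. The probe at −0.81 lies at chr16:89261208-89261267 (mm9), apart from the others at 89206262 and 89206195. It shares runs of 20 and 25 bases with these, so the 3 readings are not independent. The remaining probe for Krtap20-2 was not well above background on either array.

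Family 19 was the least uniform of the class. Its 4 measured members ran from Krtap19-9b at −1.40 to Krtap19-4 at −0.36. Krtap19-4, the brightest gene of the class, went from 1.4 to 1.09, and Krtap19-5 from 0.0807 to 0.0595 (−0.44), with −0.37 and −0.51 for its 2 probes. The family thus held both the lowest value of the class and its 2 highest values.

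The high sulfur class held 17 genes, 14 of them measured and all 14 lower in the knockout, with a median of −0.84. Only 3 were at least 2-fold lower, yet one of these had the lowest value of all members. Krtap3-2 went from 0.571 to 0.178, which was 3.21-fold lower (−1.68). Its neighbours in family 3 differed less between the genotypes. Krtap3-3 went from 0.570 to 0.324 (−0.82) and Krtap3-1 from 0.717 to 0.364 (−0.98). Krtap3-1 lay just short of 2-fold and was the brightest gene of the class. Each of the 3 genes had 1 probe at 1 spot, so no second reading of Krtap3-2 exists.

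Krtap13-1, on chromosome 16, went from 0.241 to 0.114 (−1.09). Krtap10-4, on chromosome 10, went from 0.471 to 0.232 (−1.02). These completed the 3 genes past 2-fold. Krtap10-10, of the same family as Krtap10-4, went from 0.460 to 0.378 (−0.28). Krtap12-1, a gene of the same cluster, was level, going from 0.121 to 0.118 (−0.03), and was the one member whose sign changed with the scaling, to 0.02 with the median as reference. Krtap10-10 and Krtap12-1 had no reading outside the scattering areas of the array. In human hair, genes of families 10 and 12 are known from the cuticle, the outer scale layer of the shaft.

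Families 1 and 2, on chromosome 11, ran in a narrow range. Krtap1-5 went from 0.372 to 0.197 (−0.92), Krtap1-3 from 0.0372 to 0.0244 (−0.61) and Krtap2-4 from 0.0348 to 0.0198 (−0.82). Krtap11-1, whose protein binds hair keratins, went from 0.460 to 0.253 (−0.86), with −0.99 and −0.73 for its 2 probes. All of these were lower and none reached 2-fold. Krtap26-1 was at −0.93 and Krtap24-1, the dimmest member in the wild type at 0.0162, at −0.55.

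The ultrahigh sulfur class held 20 genes, with 18 measured, 17 of them lower and 3 at least 2-fold lower, and a median of −0.83. Krtap17-1, the brightest member of the whole set in the wild type, went from 1.45 to 0.858 (−0.75). The 3 past 2-fold were Krtap9-3, from 0.491 to 0.230 (−1.09), Krtap4-16, from 0.283 to 0.135 (−1.07), and Krtap4-7, from 0.248 to 0.122 (−1.02). Krtap4-16 was read by 2 probes, at −1.05 and −1.10, which were close to each other. Family 4 was even, with its 6 measured members between −1.07 and −0.73, the last being Krtap4-8, from 0.777 to 0.468. Family 9 was not, since Krtap9-5 went from 0.0175 to 0.0146 (−0.26) beside Krtap9-3.

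Family 5, on chromosome 7, had 5 measured members and none at 2-fold, with a median of −0.62. Krtap5-2 was lowest, from 0.405 to 0.231 (−0.81), and Krtap5-4 highest, from 0.0425 to 0.0335 (−0.35). Krtap5-3, the brightest of the family, went from 0.875 to 0.568 (−0.62). All 5 were lower, by less than the median of the whole set. Krtap5-5 went from 0.254 to 0.155 (−0.71), but its 4 probes spread from −1.01 to −0.22 and lay at different places of chromosome 7, some on the plus and some on the minus strand. The probes at 149398229 and 149415298 (mm9) share a run of 32 bases, so the 4 readings are not independent.

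Krtap31-1 was the only measured member above 0. Its signal went from 0.0330 to 0.0402, which was 1.22-fold higher (0.28). The gene was dim and had 1 probe. The other name of that family, Krtap31-2, was not well above background on either array. Krtap28-13 went from 0.383 to 0.198 (−0.95), with −1.02 and −0.88 for its 2 probes, and Krtap28-10 from 0.0762 to 0.0416 (−0.87). Families 28 and 31 were placed in the ultrahigh sulfur class by number only. Without them the 15 measured genes of families 4, 5, 9 and 17 had a median of −0.81. Krtap16-1, on chromosome 11, was left without a class because it shares its number and not its place with Krtap16-3, and went from 0.770 to 0.491 (−0.65).

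**Figure D2:**
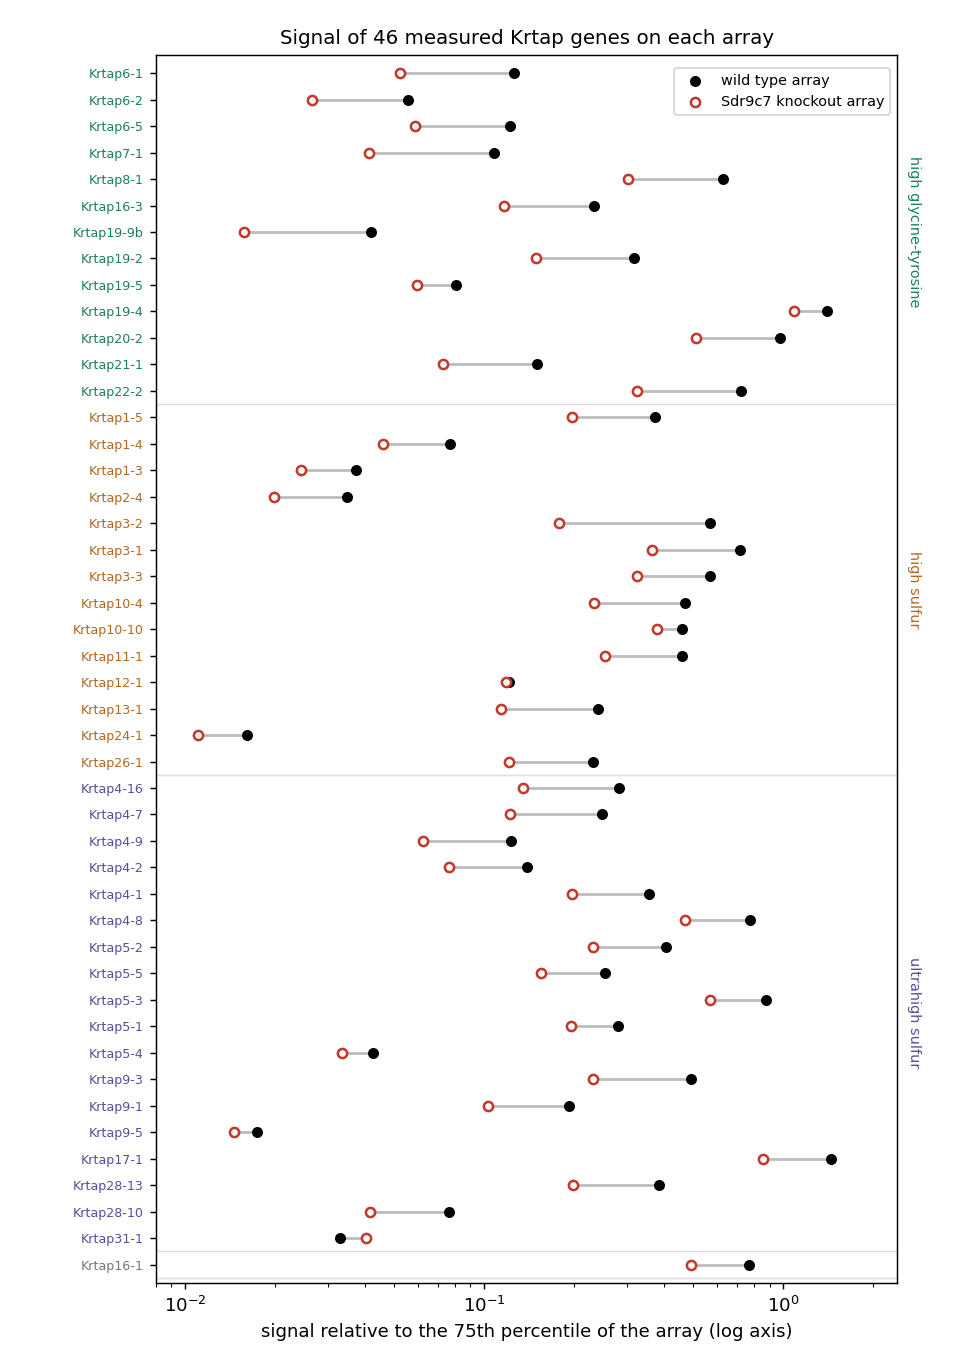
The signal of each measured Krtap gene relative to the array's 75th percentile (x axis, log scale) is drawn for the wild type array (filled points) and the knockout array (open points), with the genes ordered by class and family. The open point lies to the left of the filled one in 45 of 46 genes, and to the right in Krtap31-1.

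The share of genes past 2-fold was highest in the high glycine-tyrosine class, and the ranges of the 3 classes overlapped. At least 2-fold lower were 69.2% of the high glycine-tyrosine, 21.4% of the high sulfur and 16.7% of the ultrahigh sulfur genes measured, while the medians were −1.06, −0.84 and −0.83. Between genes the SD was 0.31, 0.39 and 0.34 within the classes, in that order. In level the classes overlapped almost wholly, with wild type signals from 0.0418 to 1.4 in the high glycine-tyrosine class, from 0.0162 to 0.717 in the high sulfur class and from 0.0175 to 1.45 in the ultrahigh sulfur class. Brightness depends on the probe as well as on the transcript, so these ranges give no order between genes. Under normexp the counts past 2-fold were 3, 1 and 1 and the medians were −0.83, −0.76 and −0.68. No test compared the classes, since they were read on the same 2 arrays.

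**Figure D3:**
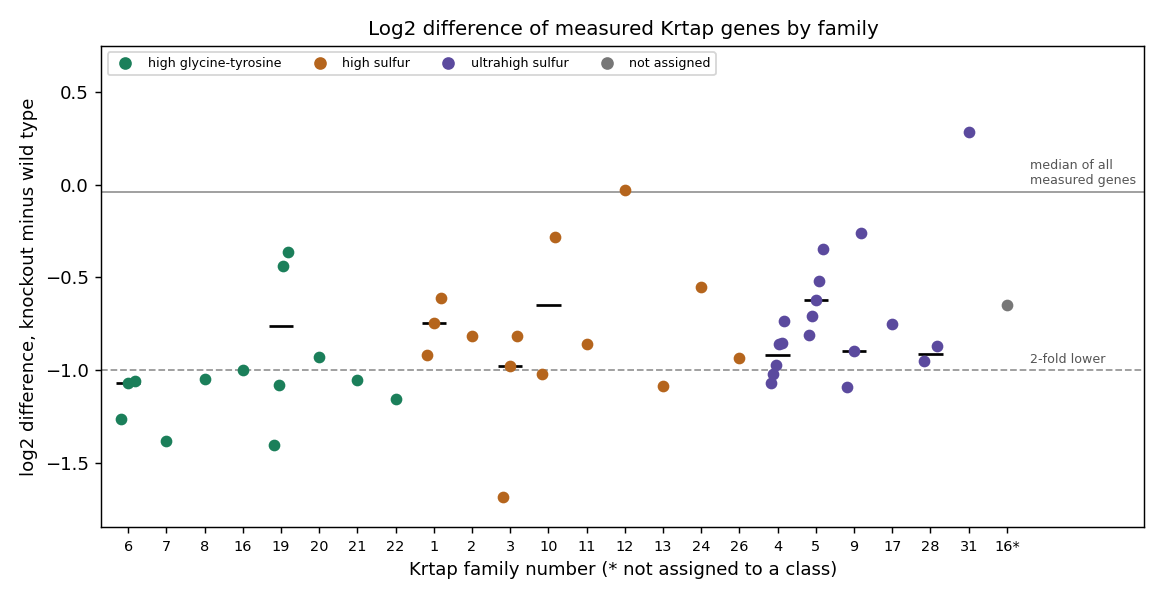
The log2 difference, knockout minus wild type (y axis), is plotted for each measured Krtap gene (points) by family number (x axis), coloured by class, with a bar at the median of each family with more than 1 measured gene, a grey line at the median of all measured names and a dashed line at 2-fold lower. The 3 genes of family 6 lie below the dashed line, the 5 of family 5 above it, and families 3, 9 and 19 spread widely.

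By place, the cluster on chromosome 16 had the lower values. Its probes ran from 88611735 to 89570882 (mm9), and 10 of its 17 measured genes were at least 2-fold lower, with a median of −1.05. The cluster on chromosome 11, from 99411448 to 99854715, had 4 of 19 and a median of −0.85. The clusters on chromosomes 7, from 149350482 to 149490408, and 1, from 83038183 to 83058202, had 0 of 5 (−0.62) and 0 of 2 (−0.91), and that on chromosome 10, from 77183942 to 77299996, 1 of 3 (−0.28). On chromosome 10, Krtap10-10 and Krtap12-1 were each read by 1 spot in an area of the array with unusually large scatter, and without such areas Krtap10-4 alone was left, at −1.01. Class and place overlap, because every high glycine-tyrosine gene lies on chromosome 16. The 4 measured high sulfur genes of that chromosome had a median of −0.90 with 1 past 2-fold, the 7 on chromosome 11 a median of −0.82 with 1, and the 11 ultrahigh sulfur genes on chromosome 11 a median of −0.86 with 3. Neighbours could differ as much as clusters did, as Krtap3-2 and Krtap3-3 show.

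**Figure D4:**
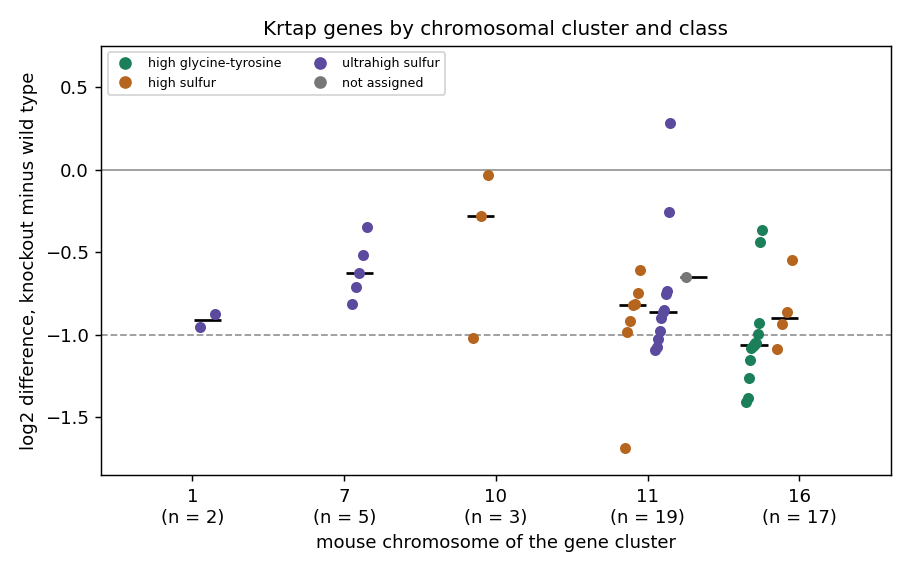
The log2 difference, knockout minus wild type (y axis), is plotted for each measured Krtap gene (points) by the chromosome of its cluster (x axis) and coloured by class, with a bar at the median of each class and a dashed line at 2-fold lower. Of the 17 genes on chromosome 16, 10 lie below the dashed line, against 4 of 19 on chromosome 11.

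How well these differences were read can be judged from repeated spots and probes, which cover technical error and not differences between animals. The Krtap6-5 probe was printed at 10 spots across the array. Its signal ran from 0.108 to 0.140 in the wild type (0.123 ± 0.0092, SD over spots) and from 0.0522 to 0.0657 in the knockout (0.0588 ± 0.0039). The difference ran from −1.14 to −0.98 over the 10 spots (−1.06 ± 0.06), which gives the spread of 1 probe on this pair of arrays. Between different probes of a gene the spread was wider, with a pooled SD of 0.22 over the 7 members with more than 1 measured probe and 0.25 over 5176 genes. Within that SD of the 2-fold threshold lay 27 of the 46 members, so which genes fall on either side of 2-fold is not well fixed. Brightness did not go with the difference across the 46 members, which share both arrays (Pearson r −0.14, Spearman rho −0.04 between mean log2 signal and log2 difference). Split into 16 dim, 15 middle and 15 bright genes, each part had 5 genes past 2-fold, and the medians were −0.84, −0.93 and −0.86. These values hold for the scanner software's background correction and were not computed under normexp, where 11 of the 46 values moved by more than the SD between probes.

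Members that were dim on an array are bounds or are unread. Krtap14, a high sulfur gene, was well above background only in the wild type, at 0.0135, and was at least 3.17-fold lower (of all names read on 1 array only, 15.3% were at least 2-fold lower). Krtap15 was read in the same way, at 0.00642 in the wild type, and was at least 1.5-fold lower. The knockout side of such a fold is the probe's reading or the lowest reading that counted as well above background there, 0.00427, whichever is greater. Not well above background on either array were Krtap4-6, Krtap13, Krtap19-1, Krtap19-3 and Krtap31-2, for which no difference is given.

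The hair keratins, partners of these proteins in the shaft, were lower as well, by somewhat less with the scanner software's background correction. Under normexp the Krtap median was −0.75, and no value is given there for the hair keratins or the lists below. Whether the order of the lists holds under normexp was therefore not tested. Of the type I hair keratins, the acidic partner in each filament pair, 8 of 9 were measured and 8 were below 0, none past 2-fold, with a median of −0.78. Krt33b went from 1.07 to 0.543 (−0.98) and Krt35, the brightest of them, from 12.8 to 8.40 (−0.60). Krt36 was at −0.94 and Krt40 at −0.63. Of the type II hair keratins, the basic partners, 5 of 6 measured were below 0, with a median of −0.57. Krt87 was 2-fold lower, from 0.157 to 0.0784, and Krt86 was at −0.94, Krt81 at −0.28 and Krt84 at 0.58. The type II keratins were thus the more mixed.

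With the scanner software's correction, other parts of the follicle differed less than the Krtap genes, though the inner root sheath was close to the type II hair keratins. All 10 measured genes of the inner root sheath and companion layer, the tube around the shaft, were below 0 and none past 2-fold, with a median of −0.52, from Krt72 at −0.91 and Krt26 at −0.69 to Krt71 at −0.37 and Gata3 at −0.14. Outside the scattering areas that median was −0.61 over 7 genes, beside −0.63 over 6 type II hair keratins. Among 12 other hair shaft genes 9 were below 0, with a median of −0.44 (−0.27 over the 10 read outside the scattering areas), from the receptor Gprc5d at −0.72 and the lipase Lipk at −0.67 to Mt4, a metallothionein, at 0.12 and the transglutaminase Tgm3 at 0.27. The 25 regulators of placode and hair matrix had a median of 0.08, with 10 below 0. Hoxc13, which switches on hair keratin and Krtap genes, was at 0.08, Foxn1 at 0.14 and Lef1 at 0.20. The ends of that list were Foxq1, a factor of the hair medulla, at −0.86, Vdr at −0.40, Gli1 at 0.38 and Ovol1 at 1.29. Dermal papilla genes had a median of 0.14 over 10, with 2 below 0, Corin at −0.62 and Sox2 at −0.10, and Rspo3 at 0.27 and Crabp1 at 0.68 at the other end. Most hair keratin and inner root sheath genes were thus below 0, where all measured names had 56.9%. Against that same share, 10 of the 25 regulators and 2 of the 10 papilla genes were below 0, and the difference was not tested.

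Markers of muscle and fat were lower in the knockout too, and those of the epidermis between follicles were close to level. All 12 skeletal muscle genes were below 0, 4 past 2-fold, with a median of −0.94 and a summed signal that went from 248 to 142, from Pvalb at −2.26 and Actn3 at −1.52 to Mylpf at −0.64 and Myh3 at −0.54. All 10 adipocyte genes were below 0, 2 past 2-fold, with a median of −0.66 and a summed signal of 94.7 and 61.8, from Cfd at −1.76 and Retn at −1.17 to Fabp4 at −0.34 and Pparg at −0.02. Melanocyte genes had 7 of 10 below 0, where all measured names had 56.9%, with a median of −0.20 and a summed signal of 31.6 and 28.4, from Oca2 at −1.28 and Pmel at −0.45 to Mitf at 0.11 and Kit at 0.17. Genes of the epidermis between follicles had 4 of 9 below 0, a median of 0.03 and a summed signal of 379 and 375, from Krt2 at −0.69 and Tgm1 at −0.18 to Casp14 at 0.22 and Ivl at 0.26. Measured markers are well above background on both arrays by definition, so their presence on each array is not a result. The muscle and fat lists moved beside the Krtap values on the same pair of arrays, and their part in the result was not tested.

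**Figure D5:**
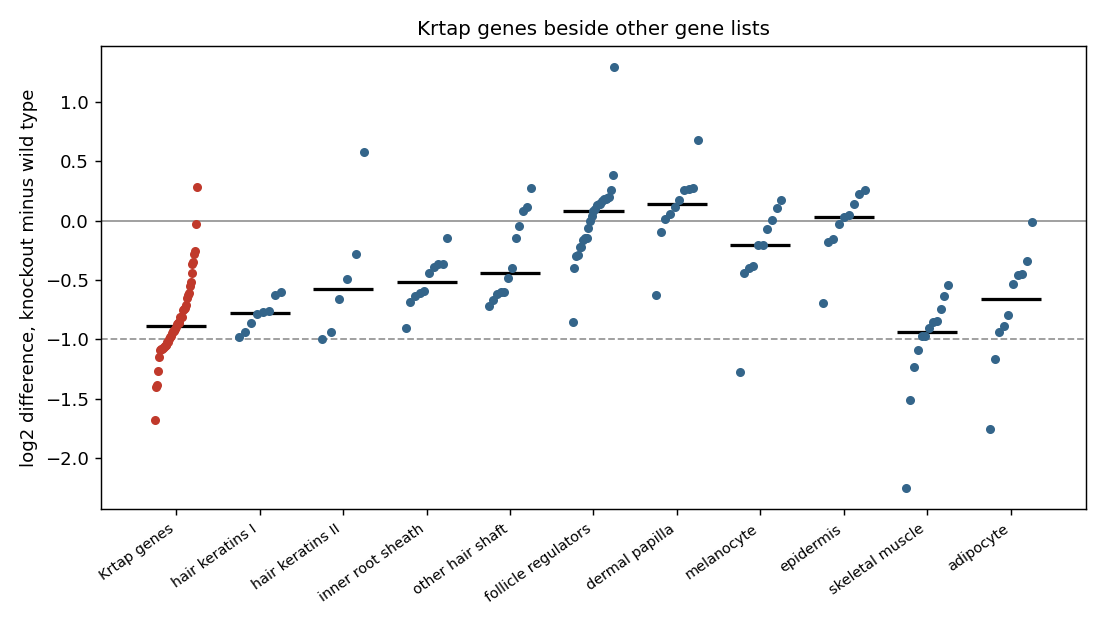
The log2 difference, knockout minus wild type (y axis), is plotted for each measured gene (points) of the Krtap set in red and of 10 other lists in blue (x axis), with a bar at each list's median, a grey line at 0 and a dashed line at 2-fold lower. The Krtap genes, at −0.89, lie beside skeletal muscle at −0.94 and below the type I hair keratins at −0.78, while the follicle regulators lie at 0.08, the dermal papilla at 0.14 and the epidermis at 0.03.

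Position on the array was also recorded. The 74 spots lay in rows 8 to 525 of 532 and none carried an outlier flag. Of the spots, 14, from 13 members, lay in areas of the array with unusually large scatter between the genotypes. Read only there were Krtap5-4, Krtap6-2, Krtap7-1, Krtap10-10, Krtap12-1, Krtap16-1, Krtap24-1 and Krtap26-1. Without those spots 38 members were measured, 37 of them below 0 and 13 at least 2-fold lower, with a median of −0.92. The median of the set was thus as large outside these areas.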

How the data were processed

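Each scanner file holds, per the file headers, the intensity of 44397 spots of a 1-colour Cy3 array, which the authors extracted with Agilent Feature Extraction 11.5.1.1 (background subtracted, spatial trend corrected). The deposited series matrix holds the same intensity as a ratio to 1 constant per array, and the step behind it is not stated there.

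Here the log2 of the processed intensity was used, 192 outlier spots and all control spots were left out, spots of a probe were averaged, and each array was scaled to the 75th percentile of 39417 probes. A gene's value averages those of its probes that passed the background flag and were unsaturated on each array. Krtap names and probe positions (mm9) are those of the files. Other names came from a RefSeq table (GRCm38.p6) where a match was found, and otherwise from the files. Families were assigned to classes by number. No protein sequences were used here, so classes were not set against protein composition. With 1 array for each genotype no test was run, and a 2-fold threshold describes differences. The code was tested on simulated data.

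The Krtap genes, classes, marker lists and thresholds were chosen with earlier results of these data known. By rule the text names members at least 2-fold apart, both ends of each family with at least 2 measured members, the brightest member of each class, members with several probes, 2 genes at each end of each list, and Sdr9c7. Krtap31-1, Krtap12-1, Krtap26-1, Krtap24-1, Krtap2-4, Krtap5-3, Krtap5-1, Krtap15, the unread members and Hoxc13, Foxn1 and Lef1 were named after their values were seen. Alternatives were the background correction (limma 3.58.1), the scaling, the filter on dim probes, the probe per gene, uneven or scattering spots and the series matrix. Python 3.11.15, numpy 2.4.6 and pandas 2.3.3 were used.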

Additional observations from a re-analysis of the deposited data

How the results depend on the processing

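Over 11 alternative settings the median log2 difference of the measured Krtap genes ran from −0.92 to −0.75, that of the high glycine-tyrosine class from −1.06 to −0.83, of the high sulfur class from −0.94 to −0.76 and of the ultrahigh sulfur class from −0.86 to −0.68. The count at least 2-fold lower, 15, ran from 5 to 19. It was 5 under normexp correction (offset 50), namely Krtap3-2, Krtap7-1, Krtap22-2, Krtap8-1 and Krtap9-3. With no filter on dim probes 1 gene was at least 2-fold higher, Krtap31-2, which was not well above background. Of 495 values of single members, 482 moved by less than the SD between a gene's probes and 13 by more, 11 of them under normexp. The sign changed in 3 of the 495, all of Krtap12-1. Most settings could hardly move a single value, so the 482 do not measure how firm the values are. The series matrix and the scaling to another reference shift all genes alike, and filters leave a member with 1 probe nearly as it was. Under normexp, which changes the background, 11 of 46 values moved by more than that SD. Leaving out the 4 genes whose probes share a long run, a choice made after the data were seen, gave a median of −0.89. Over all names, 308 lower and 120 higher became 103 and 33 under normexp, 978 and 814 with no filter and 192 and 60 with a stricter one. No paired analysis was possible because each genotype has 1 array. The number of arrays limits every value, and dim members are limited by signal over background.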
